A study of Homo sapiens with 9 samples.

Results

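The let-7 family guide strands are the 9 human mature miRNAs hsa-let-7a-5p, hsa-let-7b-5p, hsa-let-7c-5p, hsa-let-7d-5p, hsa-let-7e-5p, hsa-let-7f-5p, hsa-let-7g-5p, hsa-let-7i-5p and hsa-miR-98-5p (written without the species prefix from here on), chosen by name from the 2652 miRNA names of a small RNA sequencing table, with the loci of a name summed. The study asked which miRNAs of ovarian cancer cells associate with the 3'UTR of the mRNA of PD-L1, an immune checkpoint ligand encoded by CD274. It used miTRAP, in which a bait RNA made in vitro carries MS2 loops, is anchored to amylose resin by a fusion of maltose-binding and MS2-binding protein, meets the cell extract and is then washed and eluted with its bound RNA. All 9 libraries came from ES-2, an established ovarian cancer derived cell line of WT genotype that was left untreated. The groups, with 3 replicates each, were the input (RNA of the extract before trapping), the MS2 control (RNA retained by a control bait with MS2 loops and no PD-L1 sequence) and the PD-L1 3'UTR (RNA retained by the bait with the PD-L1 sequence). The methods state a larger amount of PD-L1 bait than of control bait, so bait sequence and bait amount cannot be told apart. The study's methods describe its experiments in general as biological replicates, while the labels of these libraries do not say whether they came from separate cultures. The p-values measure the spread between these libraries.

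The let-7 miRNAs are an old and highly conserved family, with many copies scattered over the human genome. As guide strands in Argonaute proteins they pair with target mRNAs mainly through the seed, bases 2 to 8, and lower the output of growth-promoting mRNAs such as those of RAS, MYC, HMGA2 and the IGF2BP proteins, for which they are counted among the tumour suppressor miRNAs. The LIN28 proteins block the maturation of most members, and in turn are let-7 targets. Members of a family are usually treated as interchangeable because they share the seed, and their remaining bases show where they differ.

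The 9 mature sequences are shown because the members are compared with one another below and differ in few bases. They are given 5′ to 3′ from RefSeq (GRCh38.p14), which matched all 9 names on the chromosomes that the count table lists, with the seed in capitals.
let-7a-5p: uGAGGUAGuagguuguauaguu
let-7b-5p: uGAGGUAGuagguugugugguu
let-7c-5p: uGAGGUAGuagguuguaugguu
let-7d-5p: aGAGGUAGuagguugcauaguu
let-7e-5p: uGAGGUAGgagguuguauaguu
let-7f-5p: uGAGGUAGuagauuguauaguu
let-7g-5p: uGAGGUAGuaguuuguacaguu
let-7i-5p: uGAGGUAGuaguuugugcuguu
miR-98-5p: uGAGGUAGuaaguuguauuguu
All 9 are 22 bases long, hold the seed GAGGUAG and have the same base at 14 of the 22 positions. Relative to let-7a-5p, counting from 1 at the 5′ end, let-7c-5p differs by A19G, let-7e-5p by U9G and let-7f-5p by G12A. The changes in let-7b-5p are A17G and A19G, those in let-7d-5p U1A and U16C, those in let-7g-5p G12U and U18C, and those in miR-98-5p G11A and A19U. The most distant is let-7i-5p, with G12U, A17G, U18C and A19U. Reads of members that differ by 1 base cannot be reassigned from counts, so values of such pairs are uncertain to the extent that alignment mixed them. Another 2 miRNAs with this seed, miR-4458 and miR-4500, had 0 counts in all 9 libraries.

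The members lie at 12 loci on 8 chromosomes, here with the GRCh38.p14 positions of the mature strand. let-7a-5p is made from chr9:94175962-94175983 (plus strand), chr11:122146568-122146589 (minus strand) and chr22:46112752-46112773 (plus strand), and let-7f-5p from chr9:94176353-94176374 (plus strand) and chrX:53557246-53557267 (minus strand). The single loci are chr22:46113691-46113712 (plus strand) for let-7b-5p, chr21:16539838-16539859 (plus strand) for let-7c-5p, chr9:94178841-94178862 (plus strand) for let-7d-5p and chr19:51692793-51692814 (plus strand) for let-7e-5p. The others are chr3:52268336-52268357 (minus strand) for let-7g-5p, chr12:62603691-62603712 (plus strand) for let-7i-5p and chrX:53556299-53556320 (minus strand) for miR-98-5p. Several sit side by side: on chromosome 9 let-7a-1 and let-7f-1 are 369 bases apart, on chromosome 22 let-7a-3 and let-7b are 917 apart, and on chromosome X let-7f-2 and miR-98 are 925 apart, measured between mature strands.

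Library totals were 3794799 to 5983577 miRNA counts in the input, 1156261 to 2236535 in the MS2 control and 672824 to 1237652 with the PD-L1 3'UTR. A count of 3 corresponded to between 0.501 and 4.46 CPM (counts scaled to a common library size) of these totals, while every member had at least 164 counts in every library, so depth did not limit detection of any of them. Every replicate pair differed by more than counting error, and in each group replicate 1 differed most from the others. The chi-square per degree of freedom between replicates 2 and 3 was 8.60 in the input, 30.5 in the MS2 control and 17.9 with the PD-L1 3'UTR. Between replicate 1 and replicates 2 and 3 it was 121 and 156, 108 and 138, and 93.8 and 154 in the same order. The cause was not tested. The labels call the cells ovarian cancer derived, for which no defining miRNA was listed. Of 21 listed markers of cell types (blood, erythroid, liver, neural, muscle, epithelial and pluripotent), 4 were at 0 in all libraries: miR-429, miR-302a-3p, miR-367-3p and miR-372-3p. The epithelial ones are not taken as foreign to these cells. The 21 together took 0.0362 to 0.0401% of input counts, 0.0684 to 0.0872% of MS2 control counts and 0.126 to 0.498% of PD-L1 3'UTR counts. Replicate 1 of the PD-L1 3'UTR stood apart with 0.498%, against 0.126% and 0.142% in the others, and held 2024 counts of the muscle miRNA miR-1-3p against 75 and 35. Without this library the numbers of members called higher and lower below were the same, with medians of -2.84 against the MS2 control and -1.52 against the input on the log2 scale. The part of the markers in the results was not tested.

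Together the 9 guide strands took 13.3, 9.50 and 9.40% of the counts in input replicates 1, 2 and 3. Their share was 31.2, 32.0 and 32.9% of the MS2 control libraries. On the PD-L1 bait it was 3.45, 2.64 and 3.58%. The shares of the groups did not overlap, and the family was thus most prominent on the bait that lacked PD-L1 sequence. On the scaled CPM used for the tests (TMM, which aligns libraries on the bulk of miRNAs), the sum of the members was 141907 ± 30848 (SD, n = 3) in the input, 274051 ± 20544 in the MS2 control and 28689.7 ± 4294 on the PD-L1 bait. The mean sum in the MS2 control was 9.55-fold that with the PD-L1 3'UTR and 1.93-fold that of the input, and the input mean was 4.95-fold that with the PD-L1 3'UTR. Fewer molecules of a miRNA and more of all others cannot be told apart in such shares.

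**Figure D1:**
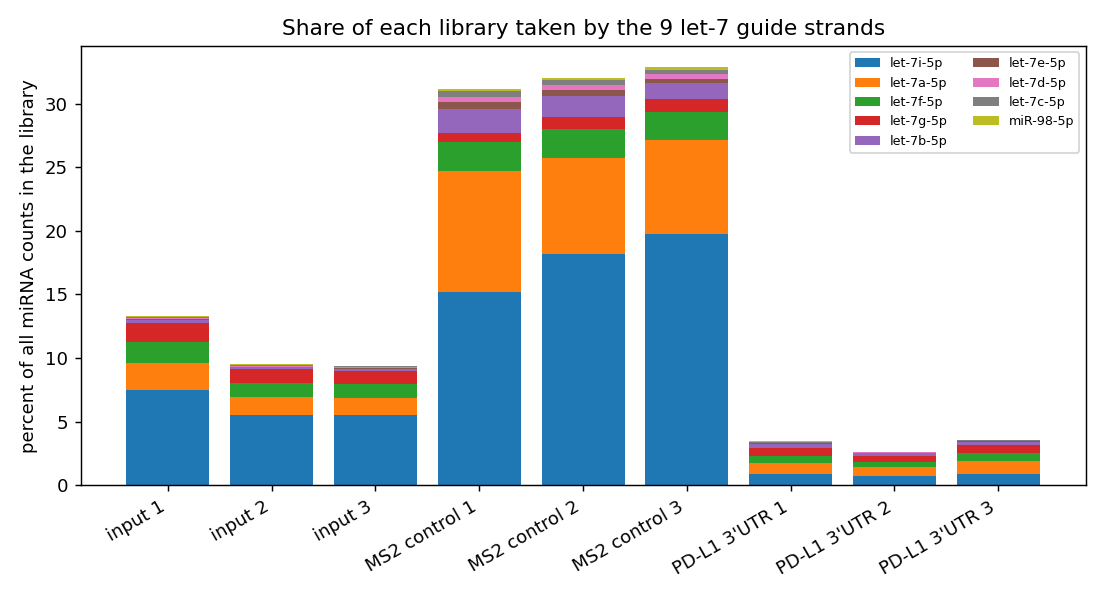
Stacked bars give the percent of all miRNA counts taken by each of the 9 let-7 guide strands in each of the 9 libraries (vertical axis from 0, horizontal axis the libraries by group and replicate). The bars reach 31.2 to 32.9% in the MS2 control, 9.40 to 13.3% in the input and 2.64 to 3.58% with the PD-L1 3'UTR, and the let-7i-5p segment is the tallest in every input and MS2 control library.

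Within the family, the mix of members differed between the groups. let-7i-5p made up 57.8% ± 1.12 (SD, n = 3) of the let-7 counts in the input, 55.1% ± 5.80 in the MS2 control and 26.9% ± 1.87 on the PD-L1 bait. let-7a-5p made up 14.7% ± 0.869, 25.6% ± 4.30 and 25.8% ± 2.72 in the same order. let-7g-5p, a close relative of let-7i-5p with 2 differences, made up 11.0% ± 0.352 of let-7 counts in the input, 2.79% ± 0.254 in the MS2 control and 17.3% ± 0.285 on the PD-L1 bait. On the PD-L1 bait let-7i-5p and let-7a-5p thus had like shares, while let-7i-5p outnumbered all other members together in 5 of the 6 input and MS2 control libraries. let-7f-5p went from 12.2% ± 0.211 and 7.01% ± 0.257 to 16.3% ± 1.44, and let-7b-5p from 1.58% ± 0.146 and 5.01% ± 1.06 to 8.26% ± 1.46. let-7c-5p, let-7d-5p, let-7e-5p and miR-98-5p each held between 0.515% and 1.89% in any library.

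By mean CPM the input ran let-7i-5p, let-7a-5p, let-7f-5p, let-7g-5p, let-7b-5p, let-7e-5p, let-7d-5p, let-7c-5p and miR-98-5p, from 81779.5 ± 16048 down to 764 ± 171 CPM. The ranges of the neighbours let-7a-5p and let-7f-5p, let-7f-5p and let-7g-5p, let-7e-5p and let-7d-5p, let-7d-5p and let-7c-5p, and let-7c-5p and miR-98-5p overlapped between libraries, although the first of each pair was higher within each of the 3 libraries. In the MS2 control let-7b-5p stood above let-7g-5p, and the ranges overlapped for let-7e-5p and let-7c-5p and for let-7c-5p and let-7d-5p. With the PD-L1 3'UTR the order was let-7i-5p, let-7a-5p, let-7g-5p, let-7f-5p, let-7b-5p, let-7e-5p, let-7c-5p, miR-98-5p and let-7d-5p. There let-7i-5p was above let-7a-5p in 2 of 3 libraries only, and let-7g-5p and let-7f-5p, let-7e-5p and let-7c-5p, and let-7c-5p and miR-98-5p also overlapped. All members have the same length, so the levels need no length correction, while differences in how well each sequence is captured in a library were not measured.

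**Figure D2:**
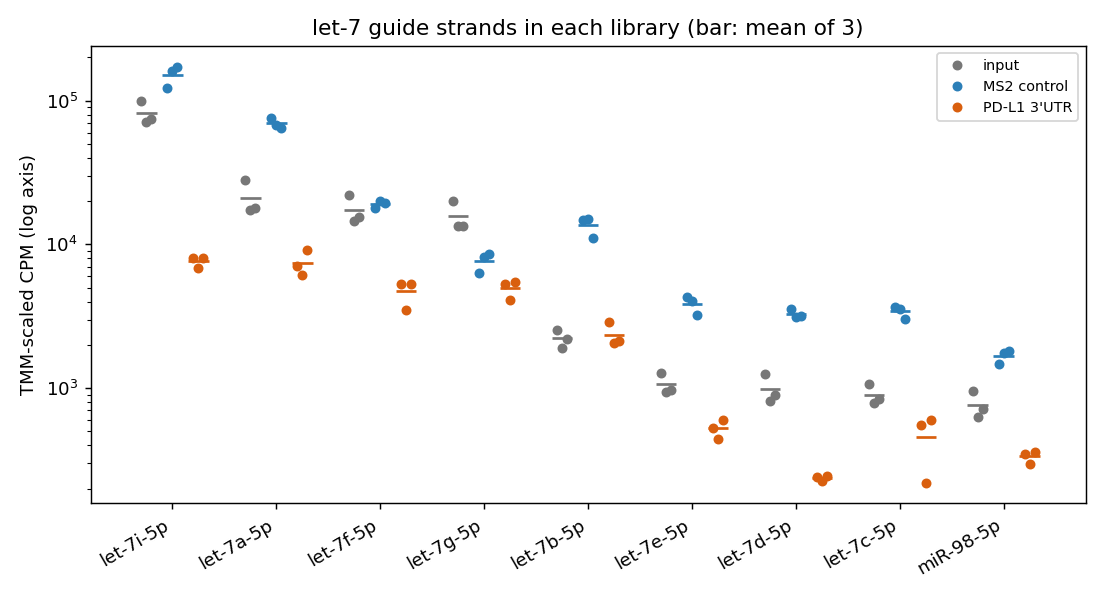
Points give the TMM-scaled CPM of each let-7 guide strand (log axis) in the 3 input, 3 MS2 control and 3 PD-L1 3'UTR libraries, and bars the group means. The PD-L1 3'UTR points lie below the MS2 control points for all 9 members, while let-7g-5p has its highest points in the input.

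Setting the PD-L1 3'UTR against its control bait addresses which miRNAs are retained beyond those that the MS2 control holds. All 9 members were lower on the PD-L1 bait and none higher, and for all 9 the libraries of the groups did not overlap. Among all 408 tested miRNAs, 28.7% were called lower, 31.4% higher and 33.1% were lower without overlap. The median log2 fold change of the members was -2.88, against 0.02 over all tested miRNAs. The members shared a direction and not a size, with log2 fold changes from -4.31 for let-7i-5p to -0.63 for let-7g-5p.

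let-7i-5p had 121886, 160885 and 172468 CPM in MS2 control replicates 1, 2 and 3. On the PD-L1 bait the same miRNA had 8025, 6897 and 8082 CPM. Its log2 fold change was -4.31 ± 0.19 (SE, edgeR adjusted p = 1.79e-08), the lowest of the family. let-7d-5p, which alone in the family starts with A, went from 3571, 3115 and 3198 CPM to 241, 225 and 243 CPM. This was a log2 fold change of -3.80 ± 0.19 (SE, edgeR adjusted p = 4.40e-08), and every PD-L1 3'UTR library was under every MS2 control library. let-7a-5p, the second most abundant member, went from 76430.4, 67399.7 and 64927 CPM to 7037, 6092 and 9171 CPM, a log2 fold change of -3.23 ± 0.22 (SE, edgeR adjusted p = 5.11e-07).

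let-7c-5p, let-7e-5p, let-7b-5p, miR-98-5p and let-7f-5p formed a middle group. Their edgeR log2 fold changes were -2.91 ± 0.32 (SE), -2.88 ± 0.19, -2.53 ± 0.19, -2.33 ± 0.19 and -2.02 ± 0.20, with adjusted p from 3.43e-07 for let-7e-5p to 1.98e-05 for let-7c-5p. In let-7c-5p the PD-L1 3'UTR libraries themselves were spread, with 551, 220.0 and 596 CPM, and replicate 2 low. let-7g-5p had 6283, 8120.3 and 8637 CPM in the MS2 control and 5331, 4097 and 5462 CPM on the PD-L1 bait. Its log2 fold change was -0.63 ± 0.19 (SE, edgeR adjusted p = 0.0162), the smallest of the family. This call was lost without MS2 control replicate 3 (-0.57, edgeR adjusted p = 0.0836) and without PD-L1 3'UTR replicate 2 (-0.53, edgeR adjusted p = 0.0538).

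**Figure D3:**
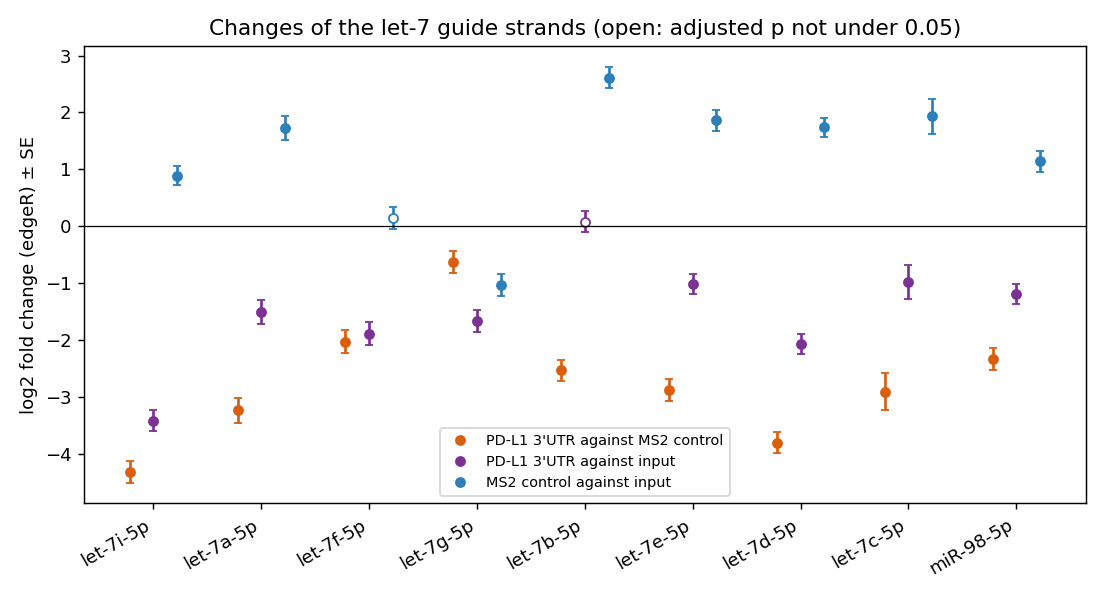
Points give each member's log2 fold change with its SE in the 3 comparisons (edgeR, 3 libraries a group), in the order of the input levels, and open points are those not past the threshold of 0.05 on the adjusted p. let-7i-5p is lowest at -4.31 against the MS2 control and -3.41 against the input, and only let-7b-5p against the input (0.08) and let-7f-5p of the MS2 control against the input (0.14) are open.

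Setting the PD-L1 3'UTR against the input addresses how the trapped miRNAs relate to what the cells held, and shares the PD-L1 3'UTR libraries with the comparison above. Of the 9 members, 8 were lower, none was higher, and let-7b-5p did not pass the test. The libraries of the 8 did not overlap. Of all tested miRNAs, 32.4% were called lower, 34.1% higher and 37.5% were lower without overlap, and the medians were -1.51 for the members and 0.04 for all. let-7i-5p had 100225, 71019 and 74094 CPM in the input and a log2 fold change of -3.41 ± 0.18 (SE, edgeR adjusted p = 1.33e-07). let-7d-5p, with 1249.5, 807 and 902 CPM in the input, had -2.06 ± 0.17 (SE, edgeR adjusted p = 3.07e-06).

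let-7f-5p, let-7g-5p and let-7a-5p, the next most abundant members of the input, had log2 fold changes of -1.88 ± 0.20 (SE), -1.66 ± 0.20 and -1.51 ± 0.21. miR-98-5p, let-7e-5p and let-7c-5p had -1.19 ± 0.18, -1.01 ± 0.18 and -0.98 ± 0.31. These 6 members passed the edgeR test with adjusted p from 1.89e-05 for let-7f-5p to 0.0164 for let-7c-5p. let-7b-5p had 2557, 1916 and 2196 CPM in the input and 2885, 2047 and 2132 CPM on the PD-L1 bait. Its log2 fold change was 0.08 ± 0.18 (SE, edgeR adjusted p = 0.691), and its libraries overlapped. Scaling by library totals moved the median of all tested miRNAs by 0.57 on the log2 scale, with 192 miRNAs then higher and 89 lower in place of 139 and 132. On that scale 6 members were lower, let-7b-5p was higher (0.66, edgeR adjusted p = 0.00916), and the calls of let-7c-5p and let-7e-5p were lost.

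Setting the MS2 control against the input shows what the control bait and resin retained relative to the cells, and shares libraries with both comparisons above. Here 7 members were higher, let-7g-5p was lower and let-7f-5p did not pass the test. The libraries of the 7 and of let-7g-5p did not overlap. Of all tested miRNAs, 32.8% were called higher, 37.0% lower, 35.8% were higher without overlap and 39.7% lower without overlap. The median was 1.72 for the members and 0.02 for all.

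let-7b-5p had the largest rise of the family, from 2557, 1916 and 2196 CPM in the input to 14790.1, 14981 and 11041 CPM in the MS2 control. Its log2 fold change was 2.61 ± 0.19 (SE, edgeR adjusted p = 1.41e-06). let-7c-5p, let-7e-5p, let-7d-5p and let-7a-5p followed, with 1.93 ± 0.31 (SE), 1.86 ± 0.18, 1.74 ± 0.17 and 1.72 ± 0.21 on the log2 scale. miR-98-5p had 1.14 ± 0.18 and let-7i-5p 0.89 ± 0.17, and these 6 had edgeR adjusted p from 9.29e-06 for let-7e-5p to 0.000822 for let-7i-5p. let-7g-5p went the other way, from 20097, 13505 and 13485 CPM in the input to 6283, 8120.3 and 8637 CPM in the MS2 control, a log2 fold change of -1.03 ± 0.20 (SE, edgeR adjusted p = 0.000824). let-7f-5p, which is made in part from the same chromosome 9 cluster as let-7a-5p and let-7d-5p, had 22041, 14596 and 15539 CPM in the input and 18036, 20184 and 19325 CPM in the MS2 control, with a log2 fold change of 0.14 ± 0.19 (SE, edgeR adjusted p = 0.528) and overlapping libraries. With library totals, which moved the median of all tested miRNAs by 0.63 and gave 199 higher and 104 lower calls in place of 134 and 151, let-7f-5p was higher (0.77) and the call of let-7g-5p was lost (-0.41, edgeR adjusted p = 0.0633).

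The ratio of a member to let-7i-5p within a library does not depend on how libraries are scaled, so it shows whether a member moved unequally to let-7i-5p. It was computed as the log2 of the member count over the let-7i-5p count, each plus 0.5, and compared between the 3 groups by an exact permutation test of the F statistic over the 9 libraries. For all 8 ratios the unadjusted exact permutation p was 0.00357, the smallest that the 280 distinct splits allow. The 8 ratios share let-7i-5p as denominator, the member with the lowest fold change in both PD-L1 comparisons, so they are not independent and each also carries the change of let-7i-5p itself. let-7i-5p was taken as the reference with its level known. With let-7a-5p as the reference 7 of 8 ratios passed, with unadjusted exact permutation p from 0.00357 to 0.0321, the exception being let-7c-5p (exact permutation p = 0.418).

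All 8 ratios were higher in every PD-L1 3'UTR library than in every MS2 control and input library. The direction of their means was set by the choice of let-7i-5p, which had the lowest fold change of the family in both PD-L1 comparisons. let-7g-5p had log2 ratios of -2.32, -2.39 and -2.46 in the input and -4.28, -4.31 and -4.32 in the MS2 control. With the PD-L1 3'UTR its log2 ratios were -0.59, -0.75 and -0.57. For let-7b-5p they were -5.29, -5.21 and -5.08 in the input, -3.04, -3.42 and -3.97 in the MS2 control and -1.48, -1.75 and -1.92 on the PD-L1 bait, a step up in each group. Relative to the input, the ratio in the MS2 control was higher without overlap for 6 members and lower without overlap for let-7f-5p and let-7g-5p. For let-7a-5p the log2 ratio with the PD-L1 3'UTR was -0.19, -0.18 and 0.18, so that its counts were close to those of let-7i-5p in each of those libraries.

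**Figure D4:**
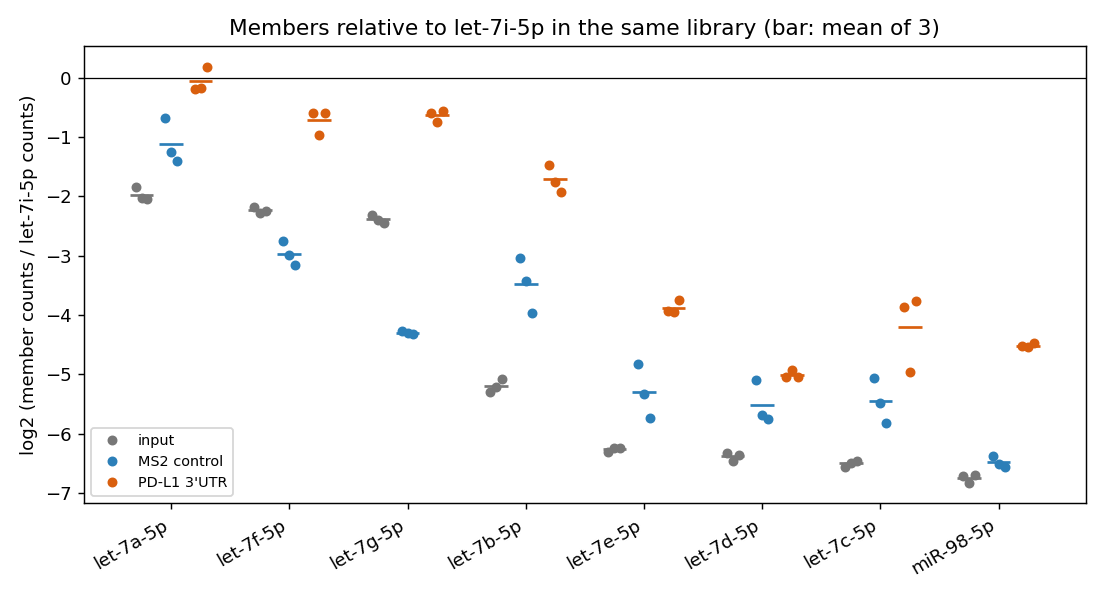
Points give the log2 ratio of each member's counts to the let-7i-5p counts of the same library, and bars the means of the 3 input, 3 MS2 control and 3 PD-L1 3'UTR libraries. The PD-L1 3'UTR points are the highest for all 8 members, and let-7f-5p and let-7g-5p have their lowest points in the MS2 control. The reference let-7i-5p had the lowest fold change of the family in both PD-L1 comparisons, which sets the direction of the PD-L1 3'UTR means.

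The strands opposite the guides, and the miRNAs made near let-7 loci, were described from lists. Passenger strands, the usually discarded partner of each hairpin, numbered 11, of which 9 could be tested. Against the MS2 control none of them was higher and 2 were lower, with a median log2 fold change of 0.07. Against the input 3 were higher and 2 lower with the PD-L1 3'UTR (median -0.37), and 4 were higher and 2 lower in the MS2 control (median -0.31). Over all 408 tested miRNAs, 31.4% were higher and 28.7% lower with the PD-L1 3'UTR against the MS2 control. Against the input these shares were 34.1 and 32.4% with the PD-L1 3'UTR and 32.8 and 37.0% in the MS2 control. The signs of the passenger strand medians depended on the scaling. On library totals the medians against the input were 0.20 with the PD-L1 3'UTR and 0.33 in the MS2 control. With totals that leave out the 9 let-7 members they were 0.08 and 0.72, and the median against the MS2 control was -0.49. The counts of so few strands are a description with no test. The most abundant, let-7d-3p, had edgeR log2 fold changes of -0.86 ± 0.15 (SE) for the PD-L1 3'UTR against the MS2 control and 2.05 ± 0.16 for the MS2 control against the input, both past the threshold, and it was also higher on the PD-L1 bait than in the input, with 838, 751 and 718 CPM against 359, 299.7 and 358 CPM. The guide of the same hairpin, let-7d-5p, had -3.80 and 1.74 in these comparisons and was lower than the input on the PD-L1 bait. Of the next most abundant, let-7a-3p had -0.87 ± 0.23 against the MS2 control, 0.29 ± 0.23 against the input and 1.16 ± 0.23 in the MS2 control against the input, where the second value did not pass. let-7f-1-3p had 0.40 ± 0.38, -1.67 ± 0.37 and -2.07 ± 0.37 in the same order, where the first value did not pass.

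The neighbours were miR-99a-5p, miR-99b-5p, miR-100-5p, miR-125a-5p and miR-125b-5p, 5 miRNAs of the miR-100 and miR-125 families encoded near let-7a-2, let-7c and let-7e. The shares called over all tested miRNAs are those given for the passenger strands, and the counts of these 5 are likewise a description with no test. Against the MS2 control 2 were higher and none lower with the PD-L1 3'UTR (median 0.44), although with totals that leave out the 9 let-7 members none was higher and 1 was lower (median -0.12). Against the input 4 were higher and 1 lower (median 0.94), with 4 higher and none lower on library totals, where miR-100-5p turned to 0.19. In the MS2 control against the input 3 were higher and 1 lower (median 0.79), and 4 were higher and 1 lower on library totals. miR-100-5p had 0.53 ± 0.09 (SE, edgeR log2 fold change) against the MS2 control and -0.38 ± 0.09 against the input, and miR-125b-5p had 0.49 ± 0.16 and 0.84 ± 0.16, all 4 past the threshold. miR-99a-5p, 715 bases from let-7c-5p on chromosome 21, had 0.44 ± 0.18 (SE, edgeR adjusted p = 0.0546) against the MS2 control and 1.28 ± 0.18 against the input, where it passed, while let-7c-5p had -2.91 and -0.98.

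**Figure D5:**
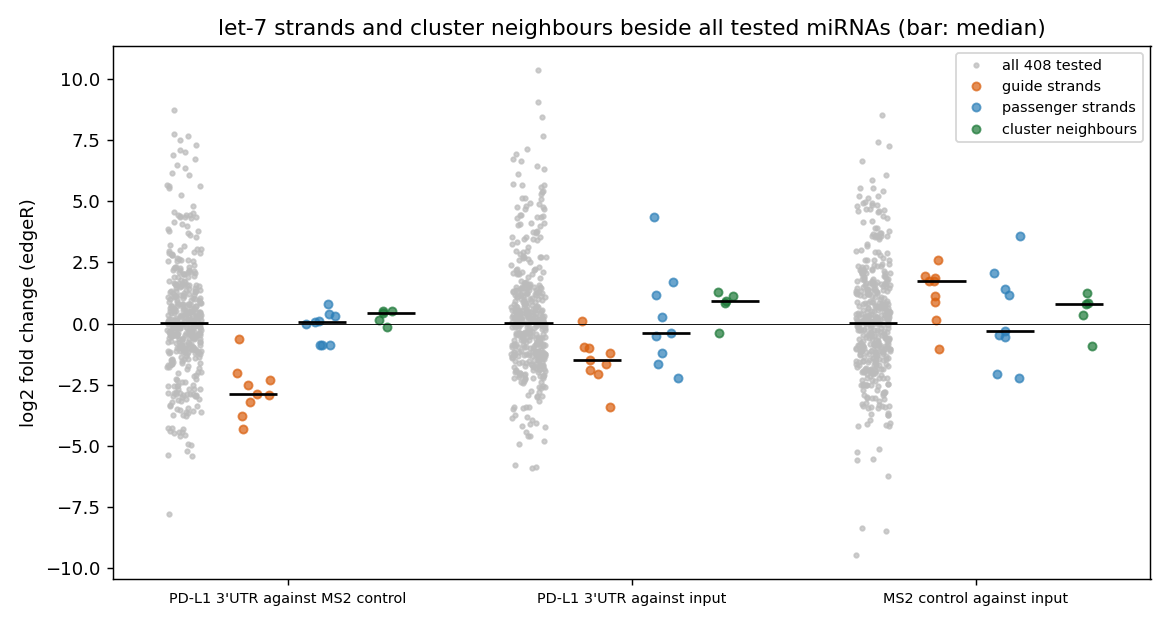
Points give the log2 fold change (edgeR) of all 408 tested miRNAs, the 9 let-7 guide strands, the 9 tested passenger strands and the 5 cluster neighbours in the 3 comparisons, and bars the medians. The guide strands have a median of -2.88 for the PD-L1 3'UTR against the MS2 control, where the passenger strands have 0.07 and the neighbours 0.44. All values are on the TMM scaling, and the signs of the passenger and neighbour medians depended on it.

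The miRNAs whose log2 CPM followed the summed let-7 level most closely over the 9 libraries were miR-320a-3p, miR-423-5p, miR-760, miR-3689a-5p and miR-1301-3p, with Pearson's r of 0.994, 0.982, 0.979, 0.972 and 0.970. The points are 3 groups of 3 libraries with a common scaling, so r reflects mainly the order of the groups and is given as a description. miR-320a-3p had 4285 CPM ± 406 (SD, n = 3) in the input, 7179 ± 102 in the MS2 control and 1385 ± 123 on the PD-L1 bait, the same order as the let-7 sum.

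The CD274 3'UTR was searched for the letters that pair with the let-7 seed. In the 2692 bases of transcript CD274-202 (GENCODE annotation, GRCh37, sense strand), the matches CTACCTC (seed bases 2 to 8), TACCTCA (bases 2 to 7 followed by A) and CTACCTCA (both together) each occurred 0 times, and so did TACCTC, which lies within all of them. Of the 5485 annotated 3'UTRs at least as long, cut to their first 2692 bases, 16.4% held CTACCTC, 17.6% TACCTCA, 6.07% CTACCTCA and 40.9% TACCTC. Which bases of the 3'UTR the bait contained was not analysed here, and the absence of these letters does not bear on pairing outside the seed.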

How the data were processed

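Small RNA of 9 ES-2 libraries was analysed from the unnormalised read counts that the authors deposited, 1 row for each locus of a mature miRNA. Per the submitters' processing notes, reads were trimmed with cutadapt 1.18, aligned to hg38 with Bowtie2 2.2.6 and summarised with featureCounts 1.6.3 on miRBase. How reads matching several loci or near-identical miRNAs were assigned is not given in the sources used here, and the effect of any mixing on the members was not tested. Samples were grouped and numbered by their titles. Counts were summed over the loci of a name.

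All 408 miRNAs kept by filterByExpr were tested with edgeR 4.0.16 in R 4.3.3 (glmQLFit, glmQLFTest, two-sided) in a single model of 3 group means over 9 libraries, scaled by TMM, with Benjamini-Hochberg adjustment over all 408 with a threshold of 0.05. TMM factors were 0.742 to 0.782 in the input, 1.13 to 1.25 in the MS2 control and 1.11 to 1.14 with the PD-L1 3'UTR, and assume that most miRNAs do not change. The calls did not meet this assumption. Of the 408 miRNAs, 163 were not called for the PD-L1 3'UTR against the MS2 control and 137 against the input. In the MS2 control against the input 123 were not called. The SE of a log2 fold change is its size over the square root of the F statistic. The common biological coefficient of variation was 31.1%. A miRNA counts as not overlapping where all libraries of a group lie beyond all of the other. The edgeR test was also run on simulated counts with a common spread and random changes, up or down, in the PD-L1 3'UTR group only. In the data miRNAs differed between all 3 groups, so the simulation does not bear on the scaling. Ratios to let-7i-5p were tested with an exact permutation test (numpy 2.4.6). Binomial intervals and floors cover counting error only, since PCR reads are not independent molecules.

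The members and lists were chosen with earlier results of these data known. All 9 members are named, and of each list up to 3 miRNAs, the most abundant by mean CPM. The 5 miRNAs most like the family are those with the highest Pearson correlation to the log2 of the summed let-7 CPM. Alternatives were DESeq2's size factors, library totals, totals without the 9 members, DESeq2 1.42.0, no filter, a mean CPM of at least 10, separate loci, only the groups compared, leaving out each library in turn, and a block on the replicate number. Sequences and positions are from RefSeq (GRCh38.p14) and the CD274 3'UTR from GENCODE (GRCh37), and coordinates were not moved between builds.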

Additional observations from a re-analysis of the deposited data

How the results depend on the processing

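The number of members lower against the MS2 control was 9 under every alternative that kept all libraries, and 8 to 9 when each library was left out. The number lower against the input was 6 to 8 under the other settings and 8 without any library. With library totals, and with totals without the 9 members, 1 member was higher against the input and 0 were lower in the MS2 control against the input. Over all tested miRNAs, 201 were lower against the input with no filter, and 221 were higher and 75 lower in the MS2 control against the input with totals without the members. The last scaling moved the median of all miRNAs by -0.56 in the PD-L1 3'UTR against the MS2 control (98 higher and 173 lower in place of 128 and 117), by 0.45 against the input (185 and 101) and by 1.02 in the MS2 control against the input. On it let-7b-5p was higher in the PD-L1 3'UTR against the input (0.54), and let-7f-5p was higher in the MS2 control against the input (1.16). The calls of let-7c-5p in the PD-L1 3'UTR against the input (-0.52) and let-7g-5p in the MS2 control against the input (-0.02) were lost.

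A pair of values that did not pass the test changed sign. let-7b-5p in the PD-L1 3'UTR against the input was -0.18 with no filter. With a library left out it ranged from -0.14 to 0.074, and was negative without input replicate 2 (-0.13), input replicate 3 (-0.11), MS2 control replicate 1 (-0.016), MS2 control replicate 3 (-0.11) and PD-L1 3'UTR replicate 1 (-0.14). let-7f-5p in the MS2 control against the input was -0.13 with no filter. With a library left out it ranged from -0.077 to 0.24, and was negative at -0.077 without input replicate 3 and -0.038 without MS2 control replicate 3. The cause was not tested.

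With the replicate number as a block (replicate block), 9 members stayed lower against the MS2 control, 8 against the input, and 7 were higher and 1 lower in the MS2 control against the input. Calls over all miRNAs were 126 higher and 117 lower, 135 and 128, and 129 and 147. Deviations of same-numbered libraries correlated with r from -0.18 to 0.13 and of other pairs from -0.12 to 0.19. Same-numbered libraries were thus no more alike than others by this measure. With 3 libraries a group it cannot settle whether they were prepared together, which the labels do not say.

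Members are at depths where counting error is small, and 3 libraries a group and unresolved cross-mapping between members limit the precision.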

Other observations

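let-7f-5p is made from identical mature sequences on chromosome 9 (let-7f-1) and chromosome X (let-7f-2), and the count table splits its reads between them. The chromosome X locus held 50.4, 51.2 and 50.8% of let-7f-5p counts in input replicates 1, 2 and 3, while on the PD-L1 bait it held 50.4, 50.0 and 50.6%. In the MS2 control it held 53.9, 54.9 and 54.6%, and these 3 libraries did not overlap with the other 6. The exact 95% binomial interval of the lowest MS2 control share ran from 53.3 to 54.5%, and that of the highest input share from 50.7 to 51.6%, for counting error only. In the RefSeq hairpins the first 4 bases after the mature 3′ end are gugg for let-7f-1 and uuag for let-7f-2. let-7a-5p, with 3 loci, showed no such step, with 31.7% ± 0.0690 (SD, n = 3) of its counts at the chromosome 11 locus in the input, 31.7% ± 0.183 in the MS2 control and 30.3% ± 2.11 with the PD-L1 3'UTR. The first 4 bases after the 3′ end also differ between the let-7a-5p loci. They are uuag on chromosome 9, uaga on chromosome 11 and uggg on chromosome 22. How reads matching several loci were assigned is not given. The let-7f-5p split was singled out after its values were seen and was not tested.

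The 6 members with G at position 12 (let-7a-5p, let-7b-5p, let-7c-5p, let-7d-5p, let-7e-5p and miR-98-5p) had log2 fold changes from 1.14 to 2.61 in the MS2 control against the input. The 3 with another base there had 0.89 (let-7i-5p), 0.14 (let-7f-5p) and -1.03 (let-7g-5p), so the sets did not overlap. In both other comparisons they did, with -2.06 to 0.08 for the 6 and -3.41 to -1.66 for the 3 in the PD-L1 3'UTR against the input, and -3.80 to -2.33 for the 6 and -4.31 to -0.63 for the 3 in the PD-L1 3'UTR against the MS2 control. The position was noticed with these values in view, and the members differ at other positions too, so this is a description with no test.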
